A study of Mus musculus with 12 samples.

Results

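The genes described here are 10 genes of the activated fibroblast: Acta2 and Tagln, which encode proteins of the contractile apparatus, and Postn, Tnc, Fn1, Ccn2, Ccn4, Thbs1, Thbs2 and Cthrc1, which encode secreted proteins of the scar matrix. They were taken by symbol from a table of 55453 genes, all 10 were found, and all 10 had enough counts to be among the 18311 genes tested. Expression was measured by RNA-Seq of skin in 12 mice, 3 in each group. Wild type mice received PBS (WT PBS) or bleomycin (WT BLM), and mice labelled as Thy1-knockout (Thy-1–KO) likewise received PBS (KO PBS) or bleomycin (KO BLM). Bleomycin is an antibiotic and cytostatic drug that scars the skin where it is injected. The study's methods give a C57BL/6 background for both genotypes and littermates as controls. They give female sex and an age of 8 to 12 weeks beside the knockout mice only. The methods list WT mice as C57BL/6J from The Jackson Laboratory. They also give a dose of 10 mg/kg per day injected into 2 spots on the back over at most 14 days. The series' design text gives a treatment of 21 days. Skin of all 12 mice was harvested at day 21. The knockout was global, so Thy-1 (CD90, a surface protein of fibroblasts and T cells) was targeted in every cell type of the mouse. Each mouse is named by its group and its number in the labels.

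Fibroblasts that are stretched or exposed to TGF-β become myofibroblasts. They assemble stress fibers of α-smooth muscle actin (the product of Acta2), pull on the matrix through integrins, and lay down collagen together with matricellular proteins, which are secreted proteins that signal to cells through their receptors more than they bear load. Tenascin-C, periostin, thrombospondins and the CCN proteins are low in resting dermis and are made at wound edges and in fibrotic skin. Acta2 and Tagln are also made by vascular smooth muscle, pericytes and the arrector pili muscle, so in whole skin their level is a sum over several cell types. In bulk RNA, more cells of a type and more RNA per cell cannot be told apart.

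Library totals lay between 26473700 and 38890450 counts, and the biological coefficient of variation was 34.9%. Levels are CPM (counts scaled by the TMM-normalized library total), and a gene was called at an adjusted p under 0.05 in edgeR's quasi-likelihood test over all genes tested. With 3 mice against 3, an exact permutation test cannot give a two-sided p under 0.1. Thy1 was still counted in every knockout mouse, at 73.3 ± 25.9 CPM (SD, n = 3) in KO PBS against 123 ± 23.7 CPM (SD, n = 3) in WT PBS, and gene counts do not show which part of the gene these reads came from. Some mice stood apart from their groups in tissue markers. The mean of 18 genes of growing hair was 9.81 to 10.36 log2 CPM in WT PBS mice and -0.0025 to 3.89 in WT BLM mice. It was 10.37 in KO PBS mouse 136 against -0.51 and 2.20 in the other KO PBS mice. In KO BLM mouse 141 it was 9.33, against 5.61 and 6.59 in the other KO BLM mice. The mean of 14 skeletal muscle genes was 8.19 to 8.55 log2 CPM in WT PBS, 9.96 to 10.96 in WT BLM, 8.65 to 10.63 in KO PBS and 9.24 to 9.94 in KO BLM mice. The calls in KO mice are therefore also given without mouse 136, without mouse 141 and without both.

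Of the 10 genes, 4 had a promoter window in the RefSeq table of build GRCm38.p6, and sequences are shown for the 3 whose windows bear on what follows. Acta2 is a classic target of serum response factor, which binds the CArG box (CC, 6 bases of A or T, GG, the same read on both strands). Its window held no exact CArG box but a pair of near matches with 1 base other than A or T in the core, in capitals here.
Acta2, chr19:34255438-34255467, minus strand: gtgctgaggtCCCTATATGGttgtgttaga
Acta2, chr19:34255388-34255417, minus strand: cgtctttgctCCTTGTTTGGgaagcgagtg
They begin 84 and 34 bases upstream of the RefSeq start, and in the GENCODE M21 annotation both lie inside the first exon of an Acta2 transcript. An exact CArG box is found in 1.47% and a match with at most 1 such exception in 8.59% of the 32851 windows of 250 bases searched. GGAATG, the core of the TEAD site through which YAP acts, occurs in 12.6% of windows and in that of Acta2, 146 bases upstream of the start. Postn and Thbs2 are shown because their levels ran closest together among the 10 genes. Capitals mark TATAAA on either strand.
Postn, chr3:54360857-54361106, plus strand: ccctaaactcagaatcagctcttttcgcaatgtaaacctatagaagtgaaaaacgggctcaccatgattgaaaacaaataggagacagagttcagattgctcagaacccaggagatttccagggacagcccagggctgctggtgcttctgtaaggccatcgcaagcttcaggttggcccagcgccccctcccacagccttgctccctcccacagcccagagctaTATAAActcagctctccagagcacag
Thbs2, chr17:14694263-14694512, minus strand: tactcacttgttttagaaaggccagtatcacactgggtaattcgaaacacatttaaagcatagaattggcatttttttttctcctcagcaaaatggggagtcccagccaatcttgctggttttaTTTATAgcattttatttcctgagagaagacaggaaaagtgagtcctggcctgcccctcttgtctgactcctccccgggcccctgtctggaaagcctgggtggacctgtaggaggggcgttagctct
In this Postn window the TATA motif begins 26 bases before the start. In Thbs2 it lies on the reverse strand with its far end 126 bases before the start. TATAAA occurs in 12.4% of all windows. Neither sequence held a CArG box, GGAATG or the AP-1 motif TGANTCA, of which the last occurs in 6.75% of windows. Another RefSeq window of Postn, chr3:54359017-54359266, is not shown and held none of the motifs searched, TATAAA included.

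The 2 contractile genes gave different patterns. Acta2 (chromosome 19, 34241090 to 34255590, minus strand) had 165, 207 and 199 CPM in the WT PBS mice and 393, 333 and 444 CPM in the WT BLM mice. The KO PBS mice had 159, 186 and 167 CPM and the KO BLM mice 255, 258 and 360.0 CPM. Every bleomycin-treated mouse stood above every PBS-treated mouse of its genotype. The log2 fold change was 1.04 (standard error [SE] 0.18, adjusted p = 0.00539) in WT mice, a rise of 2.05-fold, and 0.77 (SE 0.18, adjusted p = 0.0917) in Thy-1–KO mice, where it did not pass the threshold. Tagln (chromosome 9, 45929619 to 45936058, minus strand) encodes transgelin, an actin-binding protein of smooth muscle and myofibroblasts. It had 120.5, 120.1 and 138 CPM in WT PBS, 99.0, 124 and 107 CPM in WT BLM, 87.2, 80.6 and 70.4 CPM in KO PBS and 150.3, 133 and 148 CPM in KO BLM mice. The KO PBS mice were below every other mouse and so below all KO BLM mice, the WT groups overlapped, and WT PBS mouse 161 lay within the range of the KO BLM mice. Tagln rose in KO mice by a log2 fold change of 0.86 (SE 0.13, adjusted p = 0.0341) and had -0.20 (SE 0.12, adjusted p = 0.230) in WT mice.

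The ratio of Acta2 to Tagln CPM, taken within each mouse, was 1.37 to 1.72 in WT PBS, 2.67 to 4.15 in WT BLM, 1.82 to 2.37 in KO PBS and 1.7 to 2.43 in KO BLM mice. The WT BLM mice had a higher ratio than any other mouse, and the KO groups overlapped. Exact two-sided permutation tests gave p = 0.1 for WT BLM against WT PBS, for KO PBS against WT PBS and for KO BLM against WT BLM, which is the smallest this design allows, and p = 0.7 for KO BLM against KO PBS. Adjacent to these values, Tagln shares 1241 exonic bases with Gm48529 on the other strand, and the use of strand in counting is not given in the sources used here. Gm48529 itself had 115 to 158 counts per mouse against 2364 to 5435 for Tagln. Smaller overlaps with genes on the other strand were annotated for Tagln with Pcsk7 (108 exonic bases), Fn1 with Apol7d (292), Thbs1 with Gm29233 (208) and Tnc with 8030451A03Rik (176). Counts of these genes are not given here.

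**Figure D1:**
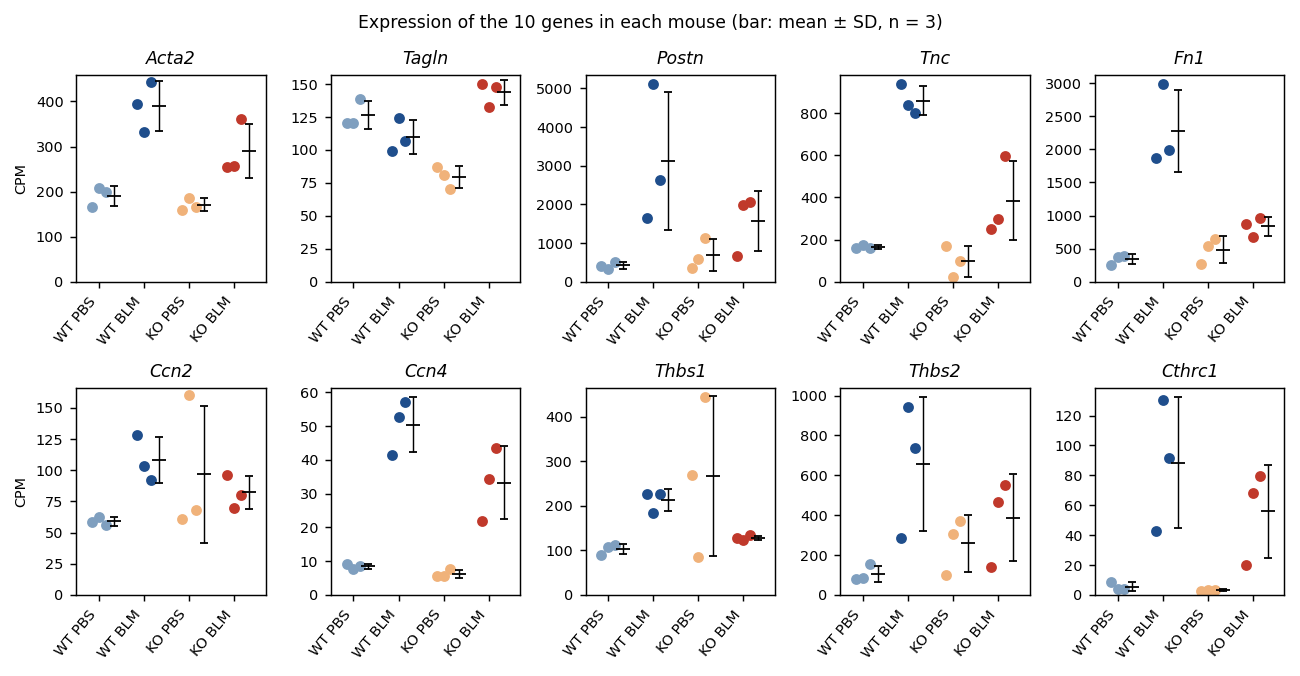
Level of each of the 10 genes in each mouse, in CPM on a linear axis from 0 that is scaled per gene. Colored points are single mice in the order of the axis labels, and the black mark beside each group is its mean with the SD (n = 3). Acta2, Tnc, Fn1, Ccn4 and Cthrc1 do not overlap between bleomycin and PBS in either genotype, Tagln does not overlap between the KO groups and overlaps between the WT groups, and Thbs1 is highest in KO PBS mice 139 and 136.

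Fibronectin, periostin and tenascin-C are the glycoproteins that line the collagen fibers of a scar, and their genes rose strongly in WT BLM skin. Fn1 (chromosome 1, 71585520 to 71653200, minus strand), whose product is assembled by integrin α5β1 into the first matrix of a wound, had 251, 377 and 389.7 CPM in WT PBS and 1864, 2994 and 1988 CPM in WT BLM mice. In KO PBS it had 263, 541 and 652 CPM and in KO BLM 869, 678 and 963 CPM. No mouse given bleomycin fell into the range of the PBS-treated mice of its genotype, but all 3 KO BLM mice were below all 3 WT BLM mice. The log2 fold change was 2.75 (SE 0.36, adjusted p = 0.00329) in WT mice, or 6.73-fold, and 0.79 (SE 0.34, adjusted p = 0.233) in KO mice. The KO value was 0.49 without KO PBS mouse 136, 0.74 without KO BLM mouse 141 and 0.46 without both (adjusted p = 0.242, 0.260 and 0.304).

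Postn (chromosome 3, 54361109 to 54391037, plus strand) encodes periostin, which binds collagen and integrins and promotes collagen cross-linking. It had 417, 339 and 500.1 CPM in WT PBS and 1643, 5119 and 2621 CPM in WT BLM mice. In KO PBS mice 136, 137 and 139 it had 356, 577 and 1140.2 CPM, and in KO BLM mice 141, 143 and 144 it had 668, 1978 and 2057 CPM. The KO groups overlapped through KO PBS mouse 139 and KO BLM mouse 141. The log2 fold change was 2.90 (SE 0.59, adjusted p = 0.00841) in WT mice and 1.18 (SE 0.56, adjusted p = 0.263) in KO mice. In KO mice it was 0.87 without mouse 136, 1.53 without mouse 141 and 1.23 without both (adjusted p = 0.310, 0.111 and 0.106).

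Tnc (chromosome 4, 63959785 to 64047015, minus strand) encodes tenascin-C, a hexameric protein of wound edges that also marks the dermis around hair follicles. It had 159, 174 and 161 CPM in WT PBS and 939, 840.2 and 802 CPM in WT BLM mice. The KO PBS mice 136, 137 and 139 had 171, 24.1 and 96.8 CPM, and the KO BLM mice 141, 143 and 144 had 253, 299.7 and 599 CPM. The groups did not overlap in either genotype, and the KO PBS mouse with the WT PBS level of Tnc was mouse 136, the KO PBS mouse with the hair marker level of WT PBS skin. Tnc rose in WT mice by a log2 fold change of 2.38 (SE 0.57, adjusted p = 0.0142). It had 1.98 (SE 0.56, adjusted p = 0.134) in KO mice, and 2.67 (adjusted p = 0.0201) without KO PBS mouse 136. The part of hair markers in the Tnc values was not tested beyond the fits with that list as a covariate.

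Ccn2 and Ccn4 encode cysteine-rich CCN proteins, of which CCN2 (connective tissue growth factor) is a direct target of TGF-β and YAP and CCN4 (WISP1) a target of Wnt signaling. Ccn2 (chromosome 10, 24595442 to 24598683, plus strand) had 58.4, 62.4 and 56.0 CPM in WT PBS, 128, 104 and 92.0 CPM in WT BLM, 61.3, 160.1 and 68.4 CPM in KO PBS and 96.4, 69.9 and 80.4 CPM in KO BLM mice. The WT groups were apart, and KO PBS mouse 137 had the highest value of all 12 mice. The log2 fold change was 0.87 (SE 0.32, adjusted p = 0.0552) in WT mice, just short of the threshold, and -0.23 (SE 0.31, adjusted p = 0.699) in KO mice. It shares 665 exonic bases with Gm15270 on the other strand, which had at most 39 counts per mouse.

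Ccn4 (chromosome 15, 66891320 to 66923201, plus strand) rose in both genotypes. It had 9.20, 7.70 and 8.58 CPM in WT PBS, 41.3, 52.8 and 57.2 CPM in WT BLM, 5.48, 5.51 and 7.66 CPM in KO PBS and 21.9, 34.4 and 43.6 CPM in KO BLM mice. Bleomycin-treated and PBS-treated mice were far apart in both genotypes. Ccn4 rose by a log2 fold change of 2.57 (SE 0.26, adjusted p = 0.00215) in WT and 2.42 (SE 0.25, adjusted p = 0.0258) in KO mice, and the difference between these responses was -0.15 with a standard error of 0.34. The ratio of Ccn4 to Ccn2 CPM was 0.123 to 0.158 in WT PBS, 0.323 to 0.622 in WT BLM, 0.0344 to 0.112 in KO PBS and 0.227 to 0.543 in KO BLM mice, so that the PBS and bleomycin groups of each genotype did not overlap (exact two-sided permutation p = 0.1 each).

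Thrombospondin-1 activates latent TGF-β and restrains vessel growth, and thrombospondin-2 restrains vessel growth and matrix turnover. Thbs1 (chromosome 2, 118111876 to 118127133, plus strand) had 89.1, 108 and 112 CPM in WT PBS and 227, 184 and 227 CPM in WT BLM mice. The KO PBS mice 136, 137 and 139 had 269.7, 85.9 and 445 CPM, and the KO BLM mice had 127, 124 and 133 CPM. The 3 KO BLM mice lay within 10 CPM of one another, whereas KO PBS mice ran from below every WT mouse to above every other mouse. The log2 fold change was 1.05 (SE 0.43, adjusted p = 0.0774) in WT and -1.06 (SE 0.43, adjusted p = 0.208) in KO mice. Without KO PBS mouse 137, Thbs1 was lower in KO BLM than in KO PBS mice, with a log2 fold change of -1.48 (adjusted p = 0.0499).

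Thbs2 (chromosome 17, 14665500 to 14694235, minus strand) had 80.8, 83.3 and 153 CPM in WT PBS and 286, 944 and 737 CPM in WT BLM mice. The KO PBS mice 136, 137 and 139 had 99.6, 303 and 372 CPM, and the KO BLM mice 141, 143 and 144 had 141, 468 and 552 CPM. In both KO groups the mouse with the high hair markers had the lowest Thbs2. Thbs2 rose in WT mice by a log2 fold change of 2.63 (SE 0.65, adjusted p = 0.0159) and had 0.58 (SE 0.61, adjusted p = 0.609) in KO mice. Its KO value moved to 0.20 without mouse 136 and to 0.97 without mouse 141, and was 0.59 without both (adjusted p = 0.841, 0.323 and 0.399). The ratio of Thbs2 to Thbs1 CPM ranged from 0.775 to 1.37 in WT PBS, 1.26 to 5.12 in WT BLM, 0.369 to 3.53 in KO PBS and 1.11 to 4.14 in KO BLM mice, and groups overlapped in every comparison (exact two-sided permutation p from 0.2 to 0.9).

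Cthrc1 (chromosome 15, 39076932 to 39087121, plus strand) encodes a secreted protein with a short collagen-like repeat that is made by activated fibroblasts at sites of injury. It had 8.93, 3.75 and 4.25 CPM in WT PBS, 43.1, 130.2 and 91.9 CPM in WT BLM, 2.93, 3.57 and 3.58 CPM in KO PBS and 20.3, 67.9 and 79.3 CPM in KO BLM mice. It was the gene with the widest step among the 10, and the groups of each genotype were apart. Cthrc1 rose by a log2 fold change of 3.97 (SE 0.59, adjusted p = 0.00405) in WT mice, or 15.7-fold, and by 4.05 (SE 0.59, adjusted p = 0.0341) in KO mice, or 16.6-fold. The difference between the responses was 0.083 with a standard error of 0.74, which leaves room for a difference in either direction.

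**Figure D2:**
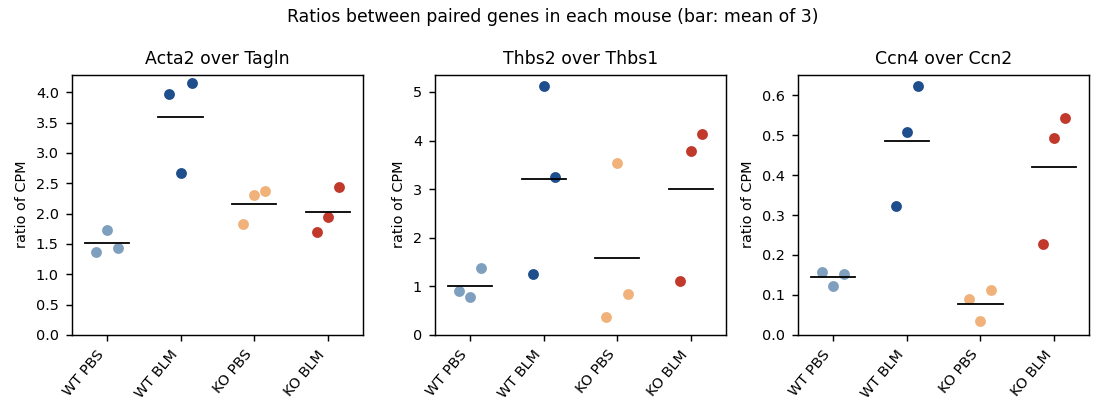
Ratios of CPM between paired genes within each mouse, on linear axes from 0: Acta2 over Tagln, Thbs2 over Thbs1, and Ccn4 over Ccn2. Points are single mice and bars are means of 3. The Acta2 to Tagln ratio is 2.67 to 4.15 in WT BLM mice and at most 2.43 in all other mice, and the Ccn4 to Ccn2 ratio is higher with bleomycin in both genotypes.

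Counted together, bleomycin raised 7 of the 10 genes in WT mice (Acta2, Postn, Tnc, Fn1, Ccn4, Thbs2 and Cthrc1) and lowered none, where 19.8% of all genes tested were called higher. The groups did not overlap, with bleomycin higher, for 9 of the 10, against 28.3% of all genes. The median log2 fold change of the 10 was 2.48 and that of all genes was 0.018. Summed over the 10 genes, expression was 1359 to 1722 CPM in WT PBS and 5664 to 10825 CPM in WT BLM mice. DESeq2 called 8 higher, adding Ccn2, where it called 18.5% of genes higher. Tnc and Thbs2 missed the threshold without WT PBS mouse 159 (adjusted p = 0.0510 and 0.0622) or without WT PBS mouse 160 (adjusted p = 0.0522 and 0.0628), where 9.15% and 8.35% of all genes were called higher. With the hair list as a covariate 0 of the 10 were called in edgeR (adjusted p from 0.0625 to 0.993, 6 at an unadjusted p under 0.05), and with the skeletal muscle list also 0 (adjusted p from 0.293 to 0.947, 5 at an unadjusted p under 0.05), while the median log2 fold changes were 1.90 and 1.51. Of all genes tested, 0.0928% were called in either direction with the hair list and 0% with the muscle list. How many of all genes reached an unadjusted p under 0.05 in these 2 fits was not counted. In the main edgeR fit it was 8686 of the 18311 genes tested. Both lists differed between these groups without overlap, so within WT mice they and bleomycin cannot be told apart.

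In Thy-1–KO mice bleomycin raised 3 of the 10 genes, Tagln, Ccn4 and Cthrc1, where 0.251% of all genes tested were called higher. PBS and bleomycin groups were apart for 6 of the 10 (also Acta2, Tnc and Fn1), against 10.8% of all genes. An unadjusted p under 0.05 was reached by 7 of the 10 and by 3665 of the 18311 genes tested. The median log2 fold change was 0.82, against -0.0070 for all genes, and the 10 genes summed to 1475 to 3022 CPM in KO PBS and 2602 to 5016 CPM in KO BLM mice. DESeq2 added Acta2 (adjusted p = 0.00477) and Tnc (adjusted p = 0.00957), which made 5, where it called 3.49% of genes higher. The same 5 were called without KO PBS mouse 136, where 9.25% of genes were called higher, with the hair list as a covariate, where 6.5% were, and without both mouse 136 and KO BLM mouse 141, where 13.5% were. Leaving out KO BLM mouse 141 gave 4 genes, the 3 and Acta2, where 3.34% of genes were called higher. Without mouse 136, mouse 141 or both, the log2 fold change was 0.82 to 0.93 for Tagln, 2.34 to 2.64 for Ccn4 and 3.96 to 4.45 for Cthrc1. None passed without KO PBS mouse 139, KO BLM mouse 143 or KO BLM mouse 144, or without WT PBS mouse 159 or 161 (0 genes in edgeR, with 5 to 7 of the 10 at an unadjusted p under 0.05). The WT mice enter this comparison only through the filter, the scaling and the shared estimate of the spread. Each of these 5 fits called 0% of all genes, and the share of all genes at an unadjusted p under 0.05 was not counted in them. Ccn4 alone was called without WT PBS mouse 160 or WT BLM mouse 147, where 0.016% and 0.0481% of genes were called higher. Without KO PBS mouse 137, Ccn4 was higher and Thbs1 lower, where 0.0748% of genes were called in either direction.

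**Figure D3:**
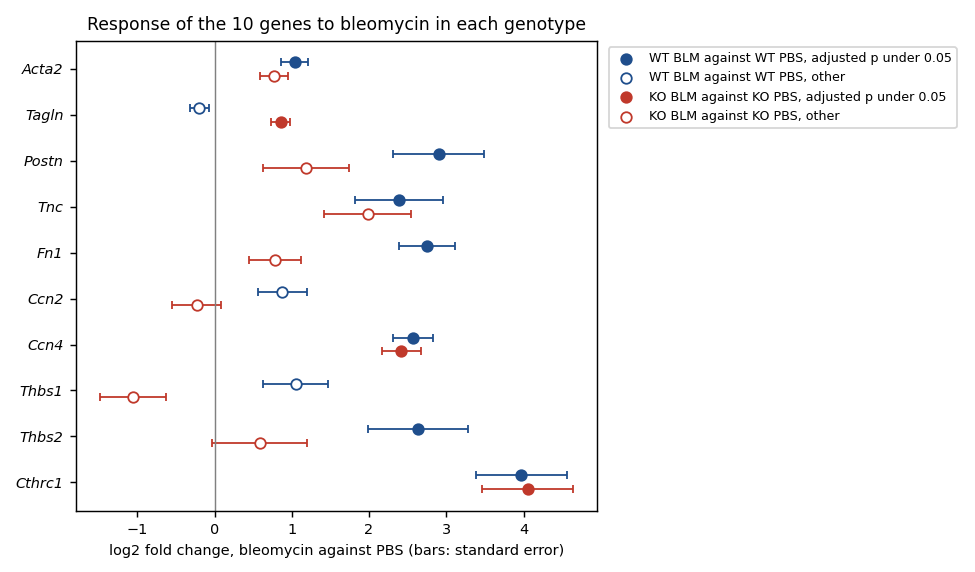
Log2 fold change of each gene between bleomycin and PBS, with its standard error, in WT mice (blue) and Thy-1–KO mice (red). Filled points passed an adjusted p of 0.05 in edgeR and open points did not. Ccn4 and Cthrc1 have nearly the same value in both genotypes, Tagln lies at -0.20 in WT and 0.86 in KO mice, and Thbs1 lies at 1.05 in WT and -1.06 in KO mice.

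Between the PBS-treated groups, 0 of the 10 genes were called in edgeR, where 0.0655% of all genes tested were called in either direction. An unadjusted p under 0.05 was reached by 3 of the 10 and by 3727 of the 18311 genes tested. Tagln, Ccn4 and Cthrc1 were lower in all 3 KO PBS mice than in any WT PBS mouse, against 10.3% of all genes lower without overlap. The KO PBS mice are also the controls of the KO BLM mice, so these low values enter the KO response of the same 3 genes. Tagln had a log2 fold change of -0.67 (SE 0.13, adjusted p = 0.148), Ccn4 of -0.45 (SE 0.24, adjusted p = 0.296) and Cthrc1 of -0.75 (SE 0.54, adjusted p = 0.410). Thbs1, at 1.37 (SE 0.43, adjusted p = 0.204), and Thbs2, at 1.29 (SE 0.62, adjusted p = 0.263), had values above 0. DESeq2 called Tagln lower (adjusted p = 0.000197) and Thbs1 higher (adjusted p = 0.0448), where it called 3.83% of genes.

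These results depended on KO PBS mouse 136. Without it, 5 of the 10 were called between KO PBS and WT PBS mice: Fn1, Ccn2, Thbs1 and Thbs2 higher and Tagln lower, with log2 fold changes of 0.81, 0.95, 1.37, 1.67 and -0.74, but in that fit 36.7% of all genes were called. Without both mouse 136 and KO BLM mouse 141, Fn1, Ccn2 and Thbs2 were higher and Tagln and Tnc lower, where 40.9% of all genes were called. Without KO PBS mouse 137, Thbs1 alone was called (log2 fold change 1.80, adjusted p = 0.0197), where 0.0428% of genes were.

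Between the bleomycin-treated groups, 9 of the 10 genes had a log2 fold change below 0 in KO BLM against WT BLM. Of the 10, 0 were called in edgeR, where 0.0928% of all genes were called. An unadjusted p under 0.05 was reached by 4 of the 10 and by 3043 of the 18311 genes tested. The median was -0.70, against -0.027 for all genes. WT BLM and KO BLM were apart for 4 of the 10, against 27.5% of all genes: Tnc, Fn1 and Thbs1 were lower and Tagln higher in all 3 KO BLM mice. Fn1 had a log2 fold change of -1.45 (SE 0.34, adjusted p = 0.193), which is 2.73-fold lower, Tnc of -1.16 (SE 0.55, adjusted p = 0.314), Thbs1 of -0.73 (SE 0.42, adjusted p = 0.381) and Tagln of 0.39 (SE 0.13, adjusted p = 0.244). Fn1 was called lower by DESeq2 (adjusted p = 0.00402), which called 3.34% of genes in either direction, without KO PBS mouse 136 (adjusted p = 0.0222, where 6.89% of genes were called), and without both mice 136 and 141 (adjusted p = 0.0394, where 4.36% were).

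Whether the response to bleomycin differed between the genotypes was tested for each gene as the difference of the 2 log2 fold changes, KO minus WT. In edgeR 0 of the 10 genes and 0% of all genes passed. An unadjusted p under 0.05 was reached by 5 of the 10 and by 5687 of the 18311 genes tested. The nearest to the threshold were Fn1 (-1.96, SE 0.48, adjusted p = 0.0702), Tagln (1.05, SE 0.18, adjusted p = 0.0702) and Thbs1 (-2.11, SE 0.60, adjusted p = 0.0774). DESeq2 called these 3, with adjusted p of 0.00247, 6.7e-06 and 0.0102, and called 18.5% of all genes. Ccn2 had -1.11 (SE 0.45, adjusted p = 0.131), Thbs2 -2.05 (SE 0.88, adjusted p = 0.145) and Postn -1.72 (SE 0.78, adjusted p = 0.162). Without KO PBS mouse 136, 5 of the 10 passed, Tagln with a larger response in KO mice and Fn1, Ccn2, Thbs1 and Thbs2 with a smaller one, where 39.9% of all genes passed, and the same 5 passed without both mice 136 and 141, where 38.6% of all genes did. The contrasts named here share their PBS groups, so their values for a gene are not independent of one another.

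Levels can be compared between genes only per length, here as CPM per kb of exon in the GENCODE M21 annotation of GRCm38. In WT PBS skin the contractile genes led, with 86.6 ± 10.2 CPM per kb (SD, n = 3) for Acta2 and 63.6 ± 5.28 for Tagln, followed by Postn with 48.1 ± 9.26 and Fn1 with 29.0 ± 6.55. Tnc, Ccn2, Thbs1 and Thbs2 came next at 21.2, 20.6, 16.9 and 15.1, and Cthrc1 and Ccn4 were last at 3.54 and 1.53. In WT PBS mice Fn1 and Tnc, Tnc and Ccn2, and Thbs1 and Thbs2 overlapped, and the other neighbors in this order did not. In WT BLM skin the order was Postn at 359 ± 206 CPM per kb, Fn1 at 195 ± 53.0, Acta2 at 178 ± 25.3, Tnc at 111 ± 9.05, Thbs2 at 93.6 ± 48.0, Cthrc1 at 55.5 ± 27.4, Tagln at 55.4 ± 6.56, Ccn2 at 37.7 ± 6.43, Thbs1 at 35.0 ± 4.05 and Ccn4 at 9.06 ± 1.47. Of these neighbors, Acta2 and Tnc, Tagln and Ccn2, and Thbs1 and Ccn4 did not overlap. In KO PBS skin Postn and Acta2 led at 79.4 ± 46.5 and 77.7 ± 6.38 CPM per kb, and the 6 genes after them (Thbs1, Fn1, Tagln, Thbs2, Ccn2 and Tnc) each overlapped the gene before. In KO BLM skin Postn and Acta2 led again, at 180.2 ± 89.7 and 132 ± 27.2 CPM per kb, with Tagln at 72.3 ± 4.73 and Fn1 at 71.6 ± 12.4 next and overlapping. Cthrc1 was at 35.1 ± 19.6 and Ccn4 at 5.98 ± 1.97.

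**Figure D4:**
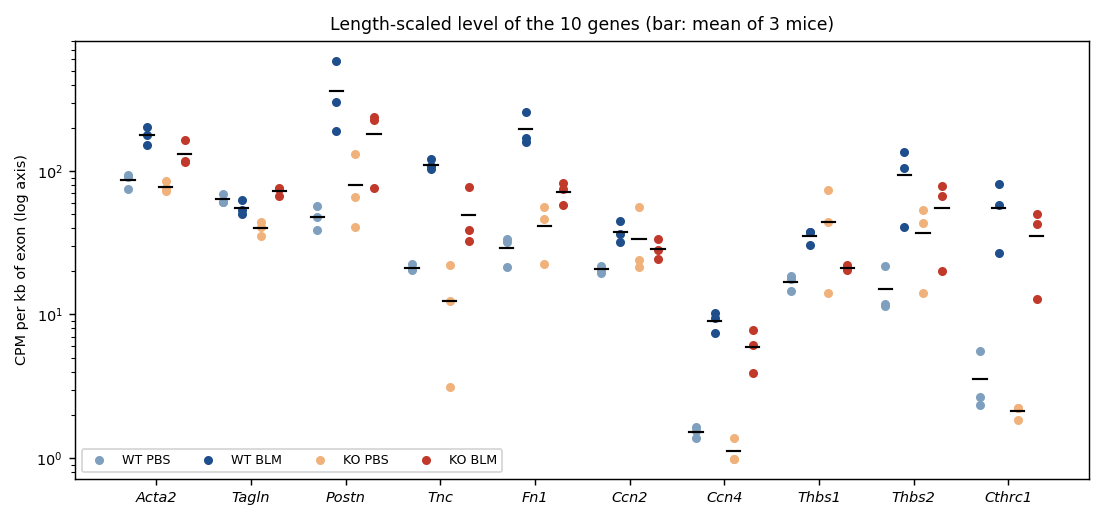
CPM per kb of exon of the 10 genes on a log axis, with points for single mice, colored by group, and a bar for the mean of 3. In WT PBS skin Acta2 and Tagln lie highest, and in WT BLM skin Postn and Fn1 have the highest means. Ccn4 is lowest in every group.

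The 10 genes did not move as one block across the 12 mice. Likeness was measured as the root mean square difference of log2 CPM after each gene's mean was removed, as a description with no test. Postn and Thbs2 were the closest pair (0.42), followed by Acta2 and Tagln (0.49), Acta2 and Ccn2 (0.50), and Postn and Fn1 (0.54), and the farthest apart were Thbs1 and Cthrc1 (2.14). The distance grows with a gene's own spread, whose SD ran from 0.35 for Tagln to 2.15 for Cthrc1. It was 0.53 for Acta2 and 0.48 for Ccn2, so the distances of Acta2 to Tagln and to Ccn2 were about as large as these spreads. For Postn and Thbs2, with SDs of 1.29 and 1.23, the distance was well below the spread. Among 13838 genes whose mean log2 CPM was 1 or more, the nearest to Postn were Adam12 (0.26), Col5a2 (0.31) and Lrrc17 (0.35), and the nearest to Thbs2 were Ccbe1 (0.33), Col6a3 (0.36) and Col1a1 (0.37). Adam12 encodes a metalloprotease, and Col5a2, Col6a3 and Col1a1 encode collagen chains. The nearest to Ccn4 were Col12a1 (0.36), Hhipl1 (0.38) and Plaur (0.40), and to Cthrc1 Col8a1 (0.52), Timp1 (0.62) and Prss35 (0.68). Fn1 lay nearest to Pou2f2 (0.27), Cdh2 (0.28) and Eda2r (0.31), and Tnc to Myl6b (0.57), Col12a1 (0.61) and Iqsec3 (0.67). Acta2 lay nearest to Pdlim1 (0.14), Phlda3 (0.18) and Pstpip1 (0.18), and Tagln to Pfdn4 (0.14), Hist1h4i (0.14) and Nudcd2 (0.15). Ccn2 lay nearest to Fbxo31 (0.19), Tigar (0.22) and Pcgf5 (0.23), and Thbs1 to Tgfb2 (0.47), Kif21b (0.48) and Rgl3 (0.49). All of these mice share the group differences, which by themselves bring genes close.

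**Figure D5:**
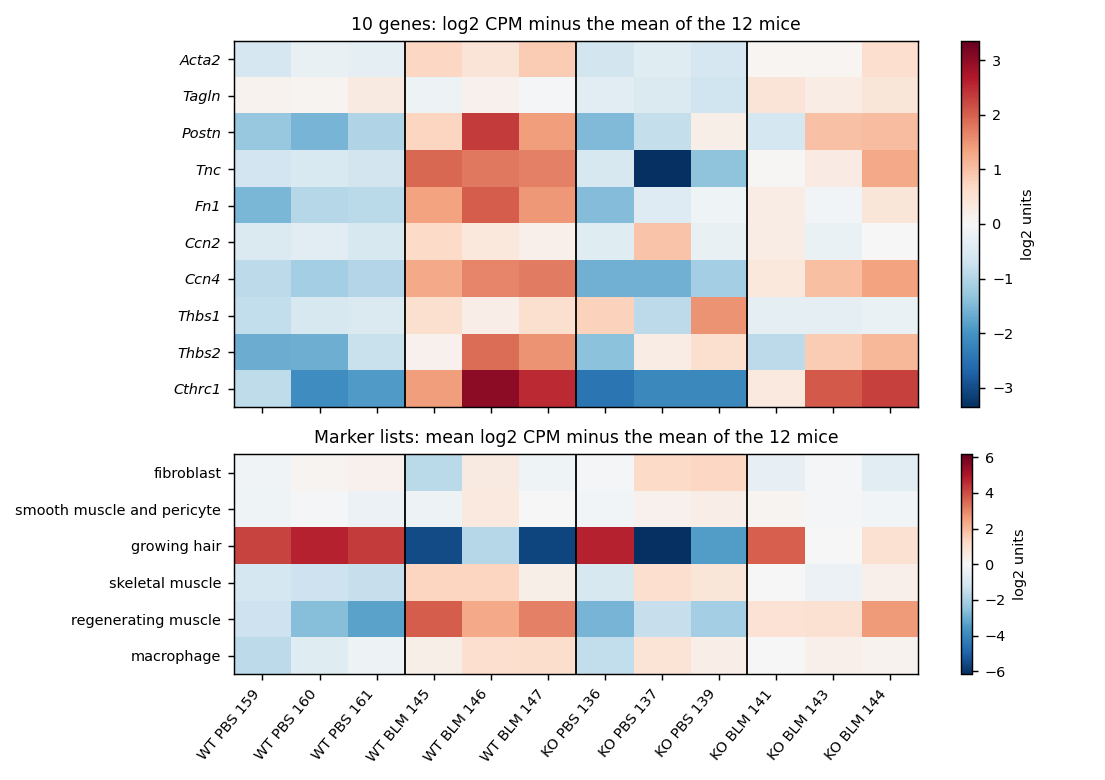
Heat maps over the 12 mice, with vertical lines between groups. The upper map gives log2 CPM of each of the 10 genes minus its mean over the mice, and the lower map gives the mean log2 CPM of 6 marker lists, centered in the same way, each map with its own color scale. Cthrc1, Ccn4 and Tnc separate bleomycin from PBS within each genotype, while the growing hair list is high in all WT PBS mice, KO PBS mouse 136 and KO BLM mouse 141.

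Relatives of the 10 genes in the CCN, thrombospondin, tenascin and transgelin families gave mixed results. Of 11 relatives tested, 3 rose and 1 fell in WT BLM mice, where 19.8% of all genes were called higher and 14.1% lower. Their median log2 fold change was 0.79. Tnn, which encodes tenascin-N (tenascin-W), rose from 1.13 to 96.6 CPM (group means, log2 fold change 6.41, adjusted p = 0.00474). Ccn1 (1.17, adjusted p = 0.0285) and Thbs3 (1.18, adjusted p = 0.0336) rose, and Tagln3, a neuronal transgelin, fell by 5.97 (adjusted p = 0.0268). Ccn3 had 2.0 (adjusted p = 0.0539), Comp 0.84 (adjusted p = 0.0812), Ccn5 0.79 (adjusted p = 0.335), Tnxb -0.046 (adjusted p = 0.946), Tagln2 -0.17 (adjusted p = 0.644), Thbs4 -0.57 (adjusted p = 0.511) and Tnr -0.73 (adjusted p = 0.251). In KO mice none of the 11 passed in edgeR (0 genes), and 5 had an unadjusted p under 0.05, as had 3665 of all 18311 genes tested. The log2 fold changes in KO mice were 4.03 for Tnn (adjusted p = 0.0897), 1.25 for Ccn1 (adjusted p = 0.126) and -1.95 for Tnxb (adjusted p = 0.111).

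Other genes around the 10 were counted from fixed lists. The shares to set beside every WT count here and in the paragraphs on marker lists below are 19.8% of all genes called higher and 14.1% called lower. Of 15 other matricellular glycoproteins, 6 rose and 0 fell (median 1.13), with Emilin1 at 2.17 (adjusted p = 0.00487), Spp1 (osteopontin) at 5.10 (adjusted p = 0.00497), Fbln2 at 2.15 (adjusted p = 0.00844) and Ecm1 at 1.67 (adjusted p = 0.0102). Of 23 genes of the activated fibroblast, 15 rose and 0 fell (median 1.72), among them Col8a1 at 4.10 (adjusted p = 0.00215), the collagen cross-linking enzymes Lox at 2.78 (adjusted p = 0.00439) and Loxl2 at 2.04 (adjusted p = 0.00557), and Col12a1 at 2.15 (adjusted p = 0.00594). Of 15 receptor genes for the proteins described here, 6 rose and 1 fell (median 0.67, the 1 being Lrp6 at -0.75): Itga5, the fibronectin receptor chain, had 2.38 (adjusted p = 0.00215), Itgb1 1.13 (adjusted p = 0.00439), Itga9, a tenascin-C receptor chain, 1.53 (adjusted p = 0.00561) and Itgb5 0.84 (adjusted p = 0.0199). Of 17 genes of TGF-β and YAP input, 7 rose and 3 fell (median 0.36; Smad2, Smad7 and Yap1 at -0.49, -1.83 and -0.50), with the ligands Tgfb1 at 1.24 and Tgfb3 at 2.01 (adjusted p = 0.00638 each) and Tead4 at 1.19 (adjusted p = 0.0191). In KO mice, of these 4 lists only Col8a1 was called, with a log2 fold change of 3.14 (adjusted p = 0.0305), and their medians were 0.25, 0.46, -0.0055 and -0.079.

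The contractile side of the program was set beside 18 actomyosin and SRF genes. Of these, 4 rose and 0 fell in WT mice, near the 19.8% of all genes called higher, with a median log2 fold change of 0.021. The 4 were Tpm2 (2.11, adjusted p = 0.00859) and Tpm1 (1.24, adjusted p = 0.0115), tropomyosins that skeletal muscle also makes, Cnn2 (0.53, adjusted p = 0.0211) and Zyx (0.47, adjusted p = 0.0216). Skeletal muscle genes moved with this comparison: 13 of 14 were called higher (median 2.40), with Mylpf at 2.92 (adjusted p = 0.00607) and Acta1, the skeletal actin, at 2.57 (adjusted p = 0.00797), and so were all 6 genes of regenerating muscle (median 5.16, Myog at 5.38, adjusted p = 0.00397). Regenerating muscle also makes some Acta2, and the part of muscle in the Acta2 values was not tested beyond the covariate fit. Of 18 smooth muscle and pericyte genes 4 rose and Smtn fell (median 0.31), led by Synpo2 at 2.5 (adjusted p = 0.00556), Mcam at 0.89 (adjusted p = 0.00569), Abcc9 at 1.72 (adjusted p = 0.0187) and Higd1b at 1.75 (adjusted p = 0.0197). Their mean level was 4.25 to 4.50 log2 CPM in WT PBS, 4.29 to 5.19 in WT BLM, 4.44 to 5.04 in KO PBS and 4.46 to 4.76 in KO BLM mice, overlapping within each genotype. The part of smooth muscle and pericytes in the Acta2 and Tagln values was not tested.

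Of 9 general fibroblast markers, 2 rose (Mfap5 and Lum, 1.38 and 1.71) and 2 fell (Pi16 and Clec3b, -4.27 and -2.02) in WT BLM mice, with a median of 0.056. Their mean was 6.48 to 6.94 log2 CPM in WT PBS, 5.03 to 7.25 in WT BLM, 6.62 to 7.97 in KO PBS and 6.01 to 6.60 in KO BLM mice. Relative to this mean, Fn1 was at 1.49 to 1.68 log2 units in WT PBS and 1.2 to 1.42 in KO PBS mice, and at 4.30 to 5.83 in WT BLM and 2.81 to 3.90 in KO BLM mice. Cthrc1 was at -4.95 to -3.32 in WT PBS, -0.22 to 0.40 in WT BLM, -6.11 to -5.04 in KO PBS and -1.82 to 0.30 in KO BLM mice. For both genes, bleomycin and PBS groups were apart in each genotype on this scale as well, and for Fn1 the WT BLM and KO BLM mice stayed apart. The share of all genes apart on this scale was not counted. Pi16 and Clec3b, which fell in WT BLM mice, are part of the list mean that is subtracted. Tnc, Thbs1 and Tagln, which were apart between WT BLM and KO BLM mice in CPM, overlapped on this scale. The KO groups of Postn, Thbs2 and Ccn2 overlapped in CPM and were apart on this scale. The list mean was itself lower in every KO BLM mouse than in any KO PBS mouse, and its genes had a median log2 fold change of -1.04. A gene with no change in CPM would therefore stand higher in KO BLM mice on this scale. Ccn2 had a log2 fold change of -0.23 in KO mice in CPM. With the list as a covariate, the same 7 genes were called in WT mice and the same 3 in KO mice, where 24.1% and 0.612% of all genes were called higher.

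Inflammatory and vascular markers changed in the same skin. In WT BLM mice 8 of 10 macrophage genes rose (median 1.99), led by Lyz2 at 2.52 (adjusted p = 0.00804), as did 6 of 6 T cell genes (median 1.42, Cd4 at 2.88, adjusted p = 0.00561) and 4 of 7 endothelial genes (median 1.10, Emcn at 1.36, adjusted p = 0.0180). Of 5 keratinocyte genes 1 rose, Krt1 at 3.37 (adjusted p = 0.0183), 0 of 7 adipocyte genes (0 at an unadjusted p under 0.05) and 0 of 3 platelet genes (2 at an unadjusted p under 0.05) passed in edgeR, and of 5 dermal papilla genes 1 rose (Crabp1, 3.21) and 4 fell (Corin, Notum, Wif1 and Hhip). Of the 18 growing hair genes 9 fell and 0 rose (median -7.35), with Hoxc13 at -4.72 (adjusted p = 0.00978) and Msx2 at -5.17 (adjusted p = 0.0110). In KO BLM against KO PBS mice, 1 gene of all these marker lists was called, Myh3, a myosin of regenerating muscle (6.99, adjusted p = 0.0467). Lrp6, Smad2, Smad7, Yap1, Smtn, Hhip and Myh3 are named after their values were seen. The mean of the macrophage genes was 4.96 to 6.26 log2 CPM in WT PBS, 6.94 to 7.66 in WT BLM, 5.08 to 7.44 in KO PBS and 6.57 to 6.92 in KO BLM mice. Macrophages also make Fn1 and Thbs1, and the part of these cells in the values of the 10 genes was not tested.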

How the data were processed

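RNA-Seq of mouse skin was analysed from 1 table of whole-number read counts per gene, which the authors deposited without normalization. Their libraries were stranded mRNA libraries tested with DESeq2. The submitters' processing notes name GRCm38.p6 and MultiQC 1.7, and the aligner, counter and annotation are not given in the sources used here. Groups came from the labels. Each sample is 1 mouse, so p-values measure the spread between mice.

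Counts were filtered with filterByExpr (at least 10 counts, 15 in total), scaled by TMM, and 1 quasi-likelihood model of 4 group means was fitted with edgeR 4.0.16 (R 4.3.3). Benjamini-Hochberg adjustment was over all genes tested. A log2 CPM used a prior count of 2. Positions and exon lengths came from GENCODE M21, and promoter sequences from RefSeq. The model was also run on simulated counts in which genes varied independently. Differences shared by many genes between mice, such as those in hair and muscle markers, were not part of that simulation. Alternatives were DESeq2 1.42.0, RLE and upper-quartile normalization, no filter, a mean of at least 1 CPM, only the 2 groups compared, 3 marker lists as covariates, and leaving out mice. Plots used Python 3.11.15 with matplotlib 3.10.9.

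The 10 genes and all lists were chosen with earlier results of these data known. All 10 are given in every comparison. From each list, at most the 4 called genes with the smallest adjusted p in WT mice are named, every relative is named, and for each of the 10 genes the 3 nearest genes are named. One gene that this rule names is not reported here.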

Additional observations from a re-analysis of the deposited data

How the results depend on the processing

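No paired analysis was possible because no mouse number occurs in more than 1 group and no litter, day or batch is labelled. The number of the 10 genes called moved as follows. In WT mice (7 called) it was 0 with the growing hair or the skeletal muscle list as a covariate, and 5 to 9 without single mice. In KO mice (3 called) it was 5 with DESeq2, with the hair covariate and without both KO PBS mouse 136 and KO BLM mouse 141, 0 with only the 2 groups compared (5 at an unadjusted p under 0.05), and 0 to 5 when each mouse was left out. Between the PBS-treated groups (0 called) it was 2 with DESeq2, 5 without both mice, and 0 to 5 when each was left out. Between the bleomycin-treated groups (0 called) it was 1 with DESeq2 and without both mice, and 0 to 1. For the difference between the responses (0 called) it was 3 with DESeq2, 5 without both mice, and 0 to 5. The other settings left each count within 1.5 times its main value, and no scaling moved the median of all genes by more than 0.05 on the log2 scale.

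Signs that changed belonged to log2 fold changes short of the threshold. With the hair covariate Tagln had 0.011 in WT mice, Ccn2 0.12 in KO mice and 0.079 between the bleomycin-treated groups, and the difference between responses was 0.066 for Acta2 and 0.19 for Ccn4. With the muscle covariate Ccn2 had -0.19 in WT mice, -0.075 between the PBS-treated and 0.092 between the bleomycin-treated groups, Postn -0.14 and Fn1 -0.37 between the PBS-treated groups, and the difference between responses was 0.17 for Ccn2 and 0.017 for Ccn4. Without both mice that difference was 0.51 for Tnc. Leaving out each mouse in turn gave -0.47 to 0.34 for Ccn2 in KO mice and differences between responses of -0.87 to 0.29 for Tnc, -0.39 to 0.077 for Ccn4 and -0.41 to 0.48 for Cthrc1. Causes were not tested.

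With 3 mice per group the spread between mice sets the precision: the standard errors of log2 fold changes between 2 groups ran up to 0.65 among the 10 genes. No sign of a repeated library was seen. Bulk counts per gene do not resolve cell types, exons or strand.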
